A study of Capra hircus with 2 samples.

Results

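The SFRP1 outer root sheath and bulge cells of Liaoning cashmere goat skin were 659 of the 13051 cells that the authors kept, 33 of 3443 in the coarse-type library (CT-LCG) and 626 of 9608 in the fine-type library (FT-LCG). They were chosen by measured values. A cell was a member when SFRP1 and TBX1 together reached 3 unique molecular identifiers (UMIs) per 10000 of the cell's UMIs with at least 2 such UMIs, KRT14 and KRT5 together reached 50 per 10000, KRT6A was under 20 per 10000, the 3 collagen genes COL1A1, COL1A2 and COL3A1 were together under 20 per 10000, and the cycle genes TOP2A, CENPF, UBE2C and BIRC5 had under 3 UMIs. The genes of this rule describe the choice and are no finding. A UMI marks 1 captured RNA molecule, so amplified copies are counted once.

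The study asked which cells and genes of the skin go with the fineness of cashmere. Shoulder skin of 1 healthy goat of each type was dissociated and made into 1 single-cell library per goat. Neither goat was treated, and neither age is given in the sources used here. The labels do not say which goat is which, so the type of each cell came from the deposited cell table. Goat, fibre type and library cannot be told apart in this design, and no test was run. Every interval below is an exact 95% interval for counting error only. Where a pair of values is given without a library, CT-LCG comes first and FT-LCG second.

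The outer root sheath is the outermost epithelial layer of the hair follicle and is continuous with the basal layer of the epidermis. Part of its upper portion, the bulge, houses the stem cells from which the lower follicle regrows in each hair cycle. SFRP1 is a secreted protein that binds Wnt ligands and limits their signal, TBX1 is a transcription factor known from hair follicle stem cells, SOX9 specifies the outer root sheath, CXCL14 is a chemokine of epithelia, and KRT19 is a keratin of the bulge.

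The members held 170182 and 4460541 UMIs. Depth ran from 882 over a median of 3338 to 16382 UMIs per cell in CT-LCG, and from 695 over 4835 to 118116 per cell in FT-LCG. The median member had 1448 and 1747 genes. All levels are summed UMIs of a gene per 10000 summed UMIs of the group, so the CT-LCG levels rest on far fewer molecules. The 2 libraries shared 11 cell barcodes, of which 0 belonged to a member.

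Among the kept cells of CT-LCG 0.958% were members (0.661 to 1.34), and among those of FT-LCG 6.52% (6.03 to 7.03). Among cells that met the keratin, collagen and cycle limits the shares were 2.15% (1.48 to 3.00) of 1537 cells and 9.50% (8.80 to 10.2) of 6592 cells. The rule asks for 2 UMIs, and the kept cells of the libraries differed in depth, with medians of 2314 and 6121.5 UMIs. With cells of at least 3000 UMIs alone the shares were 3.81% of 446 cells (2.24 to 6.03) and 11.6% of 3613 cells (10.6 to 12.7). The share was higher in FT-LCG on each of the 3 denominators, with intervals that did not overlap. The selecting genes SFRP1 and TBX1 were also higher in FT-LCG among the barcodes that the authors' filters removed. Together they were at 0.616 there in CT-LCG and at 1.78 in FT-LCG, in the unit of the rule's limit of 3. These levels mix free RNA with RNA of the removed cells. Their part in the difference between the shares was not tested.

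Of the members, 18 and 376 had UMIs of both SFRP1 and TBX1, 14 and 220 had SFRP1 alone, and 1 and 30 had TBX1 alone. Summed over members, SFRP1 was at 8.40 and 9.86 UMIs per 10000 and TBX1 at 2.06 and 2.24, values fixed in part by the choice. Per cell, SFRP1 and TBX1 together had a lowest, median and highest level of 3.53, 12.7 and 32.1 per 10000 in CT-LCG, and of 3.01, 12.6 and 121 among the FT-LCG members. At the limit, the nearest CT-LCG cells stood at 3.53 and 3.66 inside and at 2.73 and 2.62 outside, and the nearest FT-LCG cells at 3.01 and 3.02 inside and at 2.98 and 2.97 outside. The limit therefore fell within a continuous range of values in FT-LCG. A further 28 and 372 cells had 2 or more UMIs but a lower rate, 147 and 1196 had 1 UMI, and 10 and 132 of the members stood on exactly 2 UMIs.

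Cells of the same libraries served for comparison in a pair of groups. The first, called negative keratinocytes here, met every keratin, collagen and cycle limit but had 0 UMIs of SFRP1 and TBX1 (1329 and 4398 cells). The second, called KRT6A-high cells, had KRT6A at 20 or more per 10000 and met the other keratin, collagen and cycle limits (35 and 353 cells). It had no limit on SFRP1 and TBX1 and also carried both genes. Members were 2.25-fold and 2.74-fold above it for SFRP1, and 2.26-fold and 2.99-fold for TBX1, values fixed in part by the choice. Negative keratinocytes were shallower than members, with a median of 1184 and 2078.5 UMIs, and KRT6A-high cells had 1460 and 2829. The negative group also held more differentiated cells. The median of KRT1 and KRT10 together was 274 and 159 UMIs per 10000 in its cells, against 50.9 and 16.6 in members and 156 and 48.1 in KRT6A-high cells. KRT1 and KRT10 are keratins of the layers above the basal one, so the negative keratinocytes differed from members in these markers of differentiation as well as in the selecting genes.

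CXCL14, KRT19 and SOX9 are the markers of the label that the rule did not use. They came with the label, and members and gene lists were chosen with earlier results of these data known. Their levels therefore describe the members, within the limits above, and are no test of the label. CXCL14 was at 16.4 UMIs per 10000 (14.5 to 18.4) in CT-LCG members and 44.9 (44.3 to 45.5) in FT-LCG members, against 0.598 and 1.94 in negative keratinocytes, a 27.4-fold and a 23.2-fold difference. KRT19 was at 2.70 (1.98 to 3.61) and 9.19 (8.91 to 9.48), against 0.160 and 0.471. SOX9 was at 4.82 (3.83 to 5.98) and 4.32 (4.12 to 4.51), against 0.511 and 2.00. All 3 were higher in members of both libraries, and SOX9 differed least in FT-LCG, by 2.16-fold. KRT19 in CT-LCG rested mainly on 1 cell, with 26 of its 46 UMIs, and its log2 ratio there was 0.24 with KRT1 and KRT10 under 20 per 10000 in both groups, on 6 members.

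These markers did not separate the members from KRT6A-high cells in the same way. SOX9 was at 4.25 and 5.25 UMIs per 10000 in KRT6A-high cells, 1.13-fold and 0.822-fold by the ratio of members to them, so it was not past a fold of 2 in either library. CXCL14 was at 0.173 and 3.43 and KRT19 at 0.0867 (2 UMIs) and 1.70 in KRT6A-high cells, both under the members. The data thus marked the members off from KRT6A-high cells by CXCL14 and KRT19 and not by SOX9.

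Of the other bulge and outer root sheath markers, 7 of the 11 that have a feature in the gene table could be compared, and LGR5, NFIB and GAS1 were at least 2-fold higher in members of both libraries. Of the other 4, NFATC1, LGR6 and FST were not past the fold in FT-LCG, and DIO2 was lower in CT-LCG members and higher in FT-LCG members (log2 ratios of -2.43 and 2.81). LGR5, a receptor of R-spondins on follicle stem cells, was at 1.76 (1.19 to 2.52) and 1.52 (1.41 to 1.64) UMIs per 10000 against 0.0400 and 0.0984. NFIB, a transcription factor of follicle stem cells, was at 6.58 (5.42 to 7.92) and 7.42 (7.17 to 7.68) against 1.13 and 1.90. No feature carries the symbol KRT15. LHX2 had 0 and 39 UMIs in members, CD34 4 and 36, and TCF7L1 4 and 227, too few in CT-LCG to compare by the limit of 20 UMIs. CD200 fell short of the count limit as well. In FT-LCG LHX2, CD34 and TCF7L1 were 28.7-fold, 6.18-fold and 12.6-fold higher in members than in negative keratinocytes. CD200 went the other way there, at 0.731-fold, and was at 0.517-fold against KRT6A-high cells. Whether a member came from the bulge or from lower outer root sheath was not measured.

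**Figure D1:**
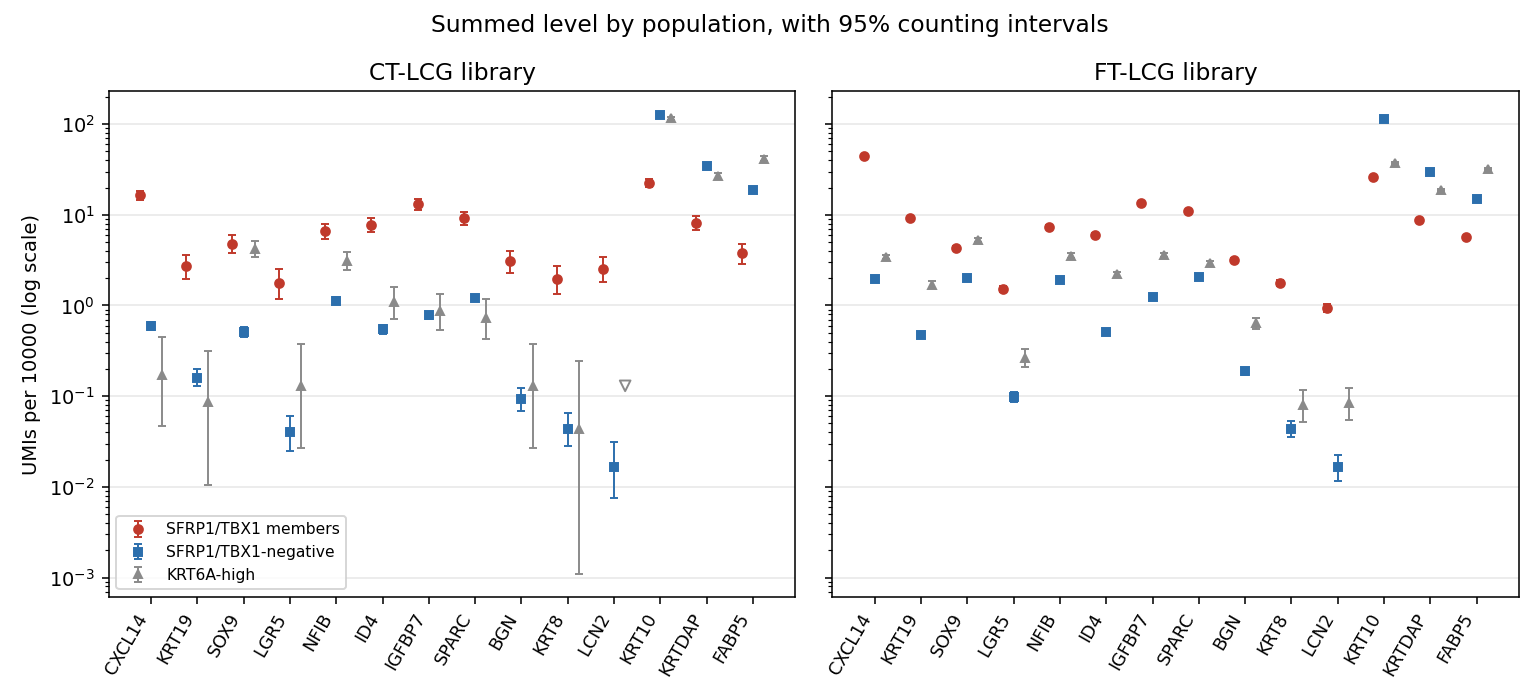
Summed level of 14 genes in UMIs per 10000 on a log scale for members, negative keratinocytes and KRT6A-high cells, with one panel per library, 95% counting intervals as bars and open triangles at the limit of 3 counts where a group had 0 UMIs. CXCL14 in members stood at 16.4 (CT-LCG panel) and 44.9 (FT-LCG panel), above both comparison groups, while KRT10 and FABP5 lay under the negative keratinocytes.

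Markers of cell types outside the epithelium were low in members of both libraries. The 8 fibroblast markers summed to 0.705 UMIs per 10000 in CT-LCG members, where 4 were at 0, and to 2.82 in FT-LCG members, where 1 was at 0. VIM made most of the sum (0.411 and 2.28). The 6 melanocyte markers summed to 0.353 and 0.469, led by MITF, and the 4 mast cell markers to 0 and 0.195. The 6 endothelial markers summed to 0.294 and 0.157, the 5 macrophage and dendritic markers with a feature to 0.0588 and 0.332, and the 6 T cell markers to 0 and 0.0628. Of the 4 Merkel cell markers CT-LCG members had 0 UMIs and FT-LCG members 1 UMI (of SOX2). Merkel cells of skin carry KRT8 and KRT20, and KRT20 had 0 UMIs in members of both libraries. The 6 sweat gland and simple epithelium markers with a feature, in contrast, summed to 2.70 and 3.51 in members, led by KRT8, against 0.178 and 0.175 in negative keratinocytes and 0.564 and 0.729 in KRT6A-high cells. Of these 6, 2 had 0 UMIs in CT-LCG members and 1 in FT-LCG members. CLDN10, a claudin of the list, had 1 UMI in CT-LCG members and was at 0.137 in FT-LCG members against 0.00392 in negative keratinocytes. The part of these markers in the results below was not tested.

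Markers of neighbouring structures were also measured in members. The 8 smooth muscle and myoepithelial markers summed to 1.47 and 2.94 UMIs per 10000, led by TAGLN at 1.35 and 1.88, with 5 of the 8 at 0 in CT-LCG. TAGLN, an actin-binding protein of smooth muscle, was at 0.171 and 0.157 in negative keratinocytes, with log2 ratios of members to them of 3.01 and 3.58, and at 0.867 and 2.65 in KRT6A-high cells. In CT-LCG members 17 of its 23 UMIs came from 1 cell, without which it was at 0.390. The 6 hair matrix and cortex markers with a feature summed to 0.881 and 2.12 and the 6 granular layer markers to 5.88 and 30.8, the latter mainly CST6, of which 1 cell held 5679 of 12990 UMIs. With that cell included, the granular sum of FT-LCG members was above their KRT19 and close to the 28.9 of negative keratinocytes. Without it the sum would be lower, so this closeness rests on 1 cell. KRT6A-high cells had 102 and 73.6. The 3 inner root sheath markers with a feature summed to 6.40 and 1.64, and the 7 sebaceous markers to 3.88 and 3.58, led by MGST1, with 5 of the 7 at 0 in CT-LCG. A total of 1 and 28 members had smooth muscle markers at 10 or more per 10000. The counts against negative keratinocytes were within 1.5 times of their value without these members. Free RNA in the droplets can give low levels of any abundant gene, but the deposited counts held no empty droplets to measure it. The barcodes outside the cell table (2659 and 1589) were cells sequenced and then removed by the authors' filters. Their levels therefore mix free RNA with RNA of the removed cells. In barcodes outside the cell table, KRT10 was at 179 and 136 UMIs per 10000 and KRT1 at 137 and 77.7, above the 22.7 and 26.3 (KRT10) and 17.1 and 14.4 (KRT1) of the members. CXCL14 was at 1.62 and 5.57 and KRT19 at 0.621 and 1.58 in those barcodes, under the members.

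Across 9961 genes with at least 20 UMIs over both groups in each library, 575 (5.77%) were at least 2-fold higher in members than in negative keratinocytes in both libraries and 226 (2.27%) were at least 2-fold lower. The counting intervals were apart in both libraries for 323 (3.24%) and 103 (1.03%) genes. The median log2 ratio of all these genes was 0.21 and 0.10, where 0 is no difference. The counts of the lists below are to be read against the 5.77% and 2.27% of all genes. The ratios had 0.5 UMI added to each sum. Of the 226 lower genes, 103 had 0 UMIs in CT-LCG members, and for 99 of them the limit of 3 counts does not show a 2-fold difference in CT-LCG, so their calls rest on FT-LCG. With members and negative keratinocytes both limited to under 20 UMIs per 10000 of KRT1 and KRT10, 81 genes were higher and 99 lower of 4143 compared, on 6 members of CT-LCG and 351 of FT-LCG, and 66 and 65 of them were among the 575 and 226. With every cell thinned to 1000 UMIs the counts were 235 and 96 of 5602.

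The 15 genes with the highest smaller log2 ratio of the 2 libraries were LCN2, KRT8, CXCL14, CNTFR, KRT19, BGN, LGR5, SDC2, TIMP3, PGLYRP1, LOC108633191, SHISA2, LTBP4, ID4 and IGFBP7. LCN2, which binds iron-carrying siderophores, was at 2.53 (1.83 to 3.40) and 0.933 (0.845 to 1.03) UMIs per 10000 against 0.0164 and 0.0165, but 22 of its 43 UMIs in CT-LCG came from 1 cell. PGLYRP1, a peptidoglycan recognition protein, was at 2.94 and 0.977 against 0.153 and 0.0688. Both genes of innate defence were thus among the 15, and both were in a minority of members, with an LCN2 UMI in 6 of 33 and 90 of 626 cells and a PGLYRP1 UMI in 12 and 160.

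KRT8, a keratin of simple epithelia, was at 1.94 (1.33 to 2.72) and 1.77 (1.65 to 1.89) UMIs per 10000 against 0.0436 and 0.0435, 44.4-fold and 40.6-fold. KRT7, also of simple epithelia, was at 0.646 (0.323 to 1.16) and 1.56 (1.45 to 1.68) against 0.0636 and 0.0744. In the list of sheath and gland keratins, 6 of the 8 with a feature could be compared, KRT7, KRT8 and KRT19 were higher and KRT79 lower in both libraries. KRT23 was counted as lower with 0 UMIs in CT-LCG members, where negative keratinocytes had 0.138, under the limit of 3 counts (0.176), so CT-LCG does not show it. The 3 higher keratins are known from simple and glandular epithelium, and KRT19 from the bulge as well.

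CNTFR, a receptor of ciliary neurotrophic factor, was at 1.18 (0.718 to 1.82) and 0.404 (0.347 to 0.467) UMIs per 10000 against 0.0182 and 0.0183. SDC2, a heparan sulfate proteoglycan of the cell surface, was at 2.59 and 1.97 against 0.0673 and 0.129. SHISA2 was at 1.94 and 1.05 against 0.0691 and 0.0779. These genes were also present in KRT6A-high cells, with SHISA2 at 1.91 in both libraries, SDC2 at 1.43 and 2.64 and CNTFR at 0.130 (3 UMIs) and 0.401. SHISA2 in FT-LCG was thus lower in members than in KRT6A-high cells, SDC2 was higher in CT-LCG and lower in FT-LCG, and CNTFR was at a like level in FT-LCG alone.

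**Figure D2:**
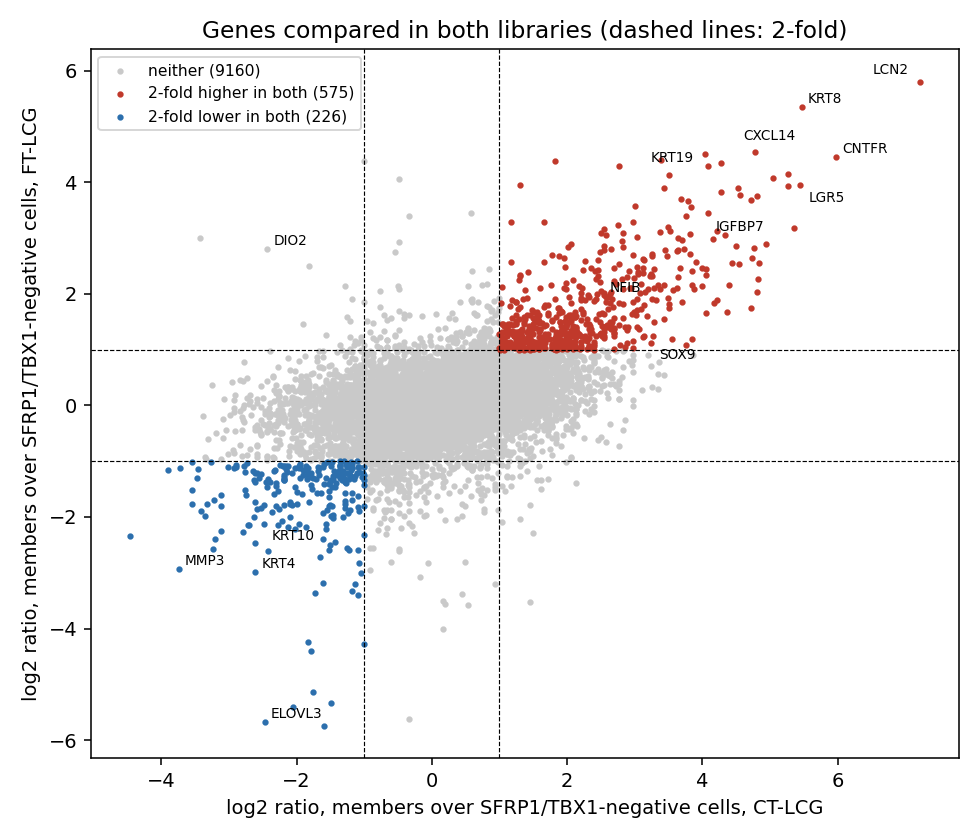
Log2 ratio of members to negative keratinocytes for the genes compared, with CT-LCG on the horizontal and FT-LCG on the vertical axis, each point a gene and dashed lines at 2-fold. A total of 575 genes lay past 2-fold at the upper right and 226 at the lower left, and DIO2 lay at -2.43 on the CT-LCG axis and 2.81 on the FT-LCG axis.

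The genes of matrix and basement membrane, the sheet that separates follicle epithelium from dermis, were higher for 7 of the 15 compared. None of the 15 was lower, and their median log2 ratio to negative keratinocytes was 1.72 and 1.07. COL4A1, a chain of basement membrane collagen, was at 1.82 (1.24 to 2.59) and 0.984 (0.894 to 1.08) UMIs per 10000 against 0.0873 and 0.220. COL4A2 was at 0.940 and 0.785 against 0.0436 and 0.134. COL18A1, whose product lies in basement membranes, was at 5.76 (4.68 to 7.02) and 4.74 (4.54 to 4.94) against 0.560 and 1.12. Collagen XVIII and these chains of collagen IV thus differed in the same direction, and LAMC1, a laminin chain, did so by 2.28-fold and 2.09-fold on 5 UMIs in CT-LCG. The collagen IV chains COL4A5 and COL4A6 did not pass the fold, with 3 and 2 UMIs in CT-LCG members and FT-LCG levels of 0.146 against 0.144 and of 0.0829 against 0.0857.

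Among matrix proteins that bind cells or growth factors, SPARC was at 9.11 (7.73 to 10.7) and 10.9 (10.6 to 11.2) UMIs per 10000 against 1.21 and 2.04. BGN, a small proteoglycan, was at 3.06 (2.28 to 4.01) and 3.16 (3.00 to 3.33) against 0.0927 and 0.188. THBS1, which activates latent TGF-beta, was at 4.70 and 3.84 against 0.584 and 1.25. BGN and SPARC are also known from fibroblasts, and in the 9 and 23 fibroblasts of these libraries SPARC was at 55.2 and 80.3 and BGN at 0 (0 UMIs) and 1.66, while the rule kept the collagens of fibroblasts low in members. POSTN, periostin, was at 19.0 (17.0 to 21.2) and 21.3 (20.9 to 21.8) against 5.78 and 11.5, 3.30-fold and 1.85-fold, and so did not pass the fold in FT-LCG. LTBP4, which holds TGF-beta in the matrix, was at 1.29 (0.810 to 1.96) and 2.56 (2.41 to 2.71) against 0.0491 and 0.199, and TIMP3, an inhibitor of matrix proteases, at 4.29 (3.36 to 5.39) and 2.40 (2.26 to 2.55) against 0.187 and 0.161. LTBP4, TIMP3 and BGN were among the 15 genes furthest above the negative keratinocytes.

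Hemidesmosomes anchor basal cells to that membrane. Of the 11 hemidesmosome and basal layer genes, all of which could be compared with negative keratinocytes, 3 were higher, 0 lower, and the median log2 ratio was 1.27 and 0.87. LAMB3, a chain of the anchoring laminin, was at 1.70 (1.14 to 2.45) and 1.40 (1.29 to 1.51) UMIs per 10000 against 0.0836 and 0.437. ITGB4, the integrin chain that binds it, was at 2.00 (1.38 to 2.79) and 2.64 (2.49 to 2.79) against 0.298 and 0.970. DST, a plakin that links the integrin to keratin, was at 5.17 and 5.45 against 1.31 and 2.05. COL17A1, the transmembrane collagen of the hemidesmosome, was at 5.99 and 10.4 against 4.17 and 6.22, 1.44-fold and 1.66-fold, so the highest gene of the list did not pass the fold.

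In contrast, genes of suprabasal epidermis were lower in members. Of the 8, 6 were at least 2-fold lower in both libraries and 0 higher. KRT10 was at 22.7 (20.5 to 25.1) and 26.3 (25.8 to 26.7) UMIs per 10000 against 127 and 115 in negative keratinocytes. KRT1 was at 17.1 and 14.4 against 112 and 63.6, and KRTDAP at 8.17 and 8.76 against 34.9 and 29.8. SBSN, DMKN and DSC1, also of the upper layers, were the others, so the 6 were lower together. FABP5, a fatty acid carrier of differentiating keratinocytes, was at 3.76 (2.90 to 4.80) and 5.65 (5.43 to 5.87) against 18.7 and 14.8.

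The 10 genes with the lowest ratio were MMP3, KRT4, MMP7, ELOVL3, LOC102190288, LOC102181552, LRMP, LOC102172960, ALDH1A1 and MMP1. In CT-LCG members 8 of them had 0 UMIs and KRT4 and ALDH1A1 had 1, so the 3-count limit of 0.176 UMIs per 10000 bounds those at 0. Against that limit 2 of the 8, MMP3 and LOC102172960, were at least 2-fold lower in CT-LCG, and the negative keratinocyte level of ELOVL3 and LOC102181552 there was under the limit itself. In FT-LCG members KRT4 was at 0.0471 against 0.380, ELOVL3, a fatty acid elongase of sebaceous cells, at 0.0112 against 0.632, and ALDH1A1, which makes retinoic acid, at 0.0583 against 0.286. MMP7 was at 0.0291 against 0.179 and MMP1 at 0.0202 against 0.102, so the matrix proteases of the list were near 0 in FT-LCG members.

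Wnt signalling drives the growth phase of the follicle, and its list was read by role. Of the antagonists that could be compared, other than SFRP1 itself, 1 of 4 was higher in members of both libraries. SFRP5 was at 0.353 (0.129 to 0.767) and 0.390 (0.334 to 0.453) UMIs per 10000 against 0.0273 and 0.0370, but 5 of its 6 UMIs in CT-LCG members came from 1 cell. DKK3, at 0.588 and 0.534 against 0.0109 and 0.0383, had 10 UMIs in CT-LCG members and fell short of the count limit. DKK2, which binds the Wnt co-receptors, had 0 UMIs in CT-LCG members and 329 in FT-LCG members (0.738, 0.660 to 0.822), where 22.0% of members (18.9 to 25.5) had a UMI against 0.364% of negative keratinocytes, and 5.93% against 0.193% with cells thinned to 1000 UMIs. The FT-LCG level was at least 4.18-fold higher than the 3-count limit of CT-LCG, and the binomial interval of 0 of 33 cells reaches 10.6%.

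Wnt receptors stood above the background share. Of 14 that could be compared, 8 were higher in both libraries and 0 lower, and the intervals were apart for FZD1, FZD7, LRP5, LRP6 and LGR5. The Frizzled receptor FZD1 was at 0.588 (0.282 to 1.08) and 0.648 (0.575 to 0.727) UMIs per 10000 against 0.0473 and 0.0501. The co-receptor LRP6 was at 0.588 and 0.856 against 0.0873 and 0.111, and LRP5 at 0.470 and 0.343 against 0.0945 and 0.157. FZD2 and FZD3 had 2 UMIs each in CT-LCG members, so their calls rest on FT-LCG. The Wnt ligands were few and mostly not past the fold: 1 of 6 was higher, WNT5A, with 3 UMIs in CT-LCG, while WNT3 was at 0.353 and 0.229 against 0.520 and 0.628 and WNT4 at 0.118 (2 UMIs) and 0.146 against 0.171 and 0.447. Among nuclear factors and targets, TCF7L2 was higher (1.18 and 0.764 against 0.475 and 0.354), 1 of 9, whereas AXIN2, a common target of the pathway, was at 0.0588 (1 UMI) and 0.0942 against 0.113 and 0.133.

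**Figure D3:**
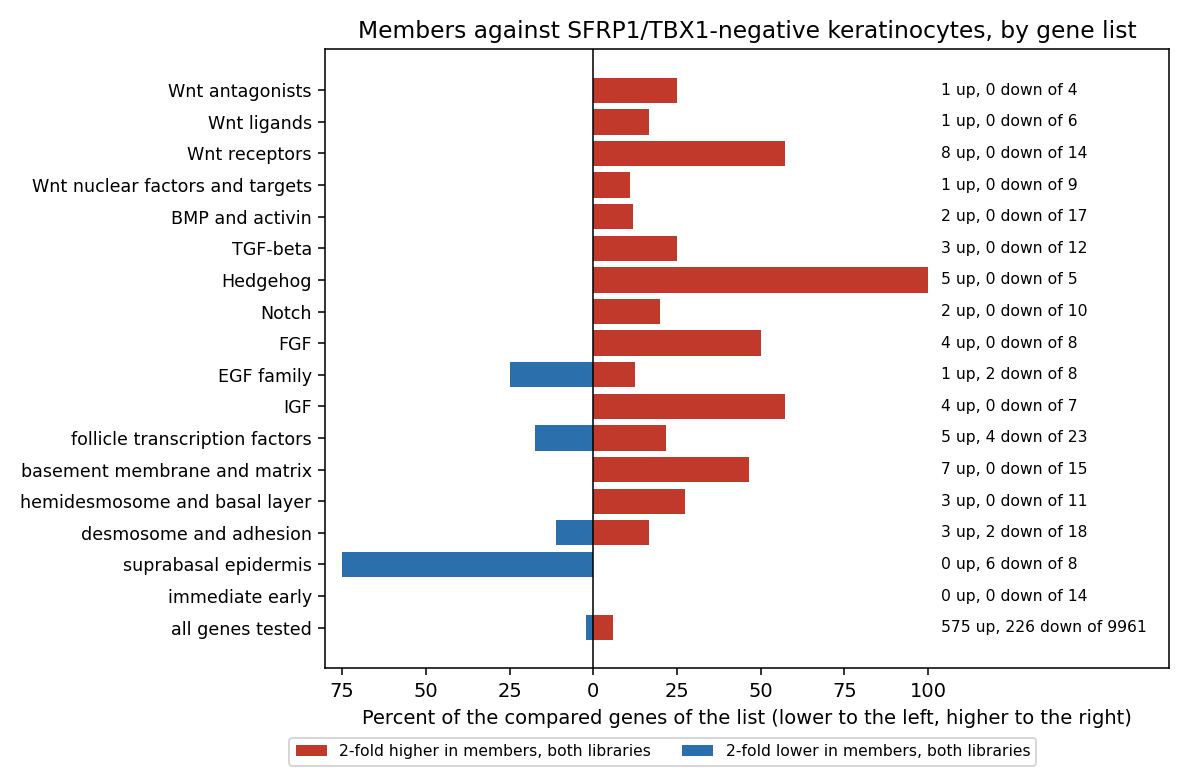
Percent of the compared genes of selected lists that were at least 2-fold higher (right) or lower (left) in members than in negative keratinocytes in both libraries, with the counts at the side and all genes compared as the bottom bar. Among the signalling, adhesion and differentiation lists drawn here, Hedgehog (5 of 5), Wnt receptors (8 of 14) and IGF (4 of 7) reached furthest to the right, and suprabasal epidermis (6 of 8) furthest to the left. Marker lists with few compared genes are not drawn.

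Of the Hedgehog list, 5 genes could be compared and all 5 were higher in both libraries, with intervals apart for PTCH1, GAS1 and BOC. The receptor PTCH1, also a target of the pathway, was at 0.353 (0.129 to 0.767) and 0.128 (0.0968 to 0.166) UMIs per 10000 against 0.0600 and 0.0313. The co-receptors BOC and GAS1 were at 1.18 and 0.805 against 0.0636 and 0.219, and at 1.12 and 2.22 against 0.547 and 1.09. SMO and GLI3 had 2 UMIs each in CT-LCG members. Without the CT-LCG cell with the most UMIs of the gene, GAS1 and GLI3 were not past the fold (log2 ratios of 0.77 and 0.86). GLI3 is a transcription factor of the pathway and SMO its signal transducer.

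Of the BMP and activin list, 2 of 17 were higher and 0 lower. ID4, an inhibitor of DNA binding and a target of BMP signals, was at 7.82 (6.54 to 9.26) and 6.04 (5.82 to 6.28) UMIs per 10000 against 0.551 and 0.513, 14.2-fold and 11.8-fold. BMPR1A, a BMP receptor, was at 0.588 and 0.419 against 0.198 and 0.190. The ligand BMP2 was at 0.529 and 0.182 against 0.925 and 0.425 and passed no fold in CT-LCG. Among the 17 compared, the other 15 were not past the fold in both libraries.

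In the IGF list, 4 of 7 were higher and 0 lower, the ligand IGF2 with all of its 5 UMIs in CT-LCG members in 1 cell. IGFBP7 and IGFBP5 bind insulin-like growth factors outside the cell. IGFBP7 was at 13.1 (11.4 to 14.9) and 13.5 (13.2 to 13.9) UMIs per 10000 against 0.778 and 1.25, and IGFBP5 at 3.53 (2.69 to 4.54) and 2.88 (2.73 to 3.05) against 0.535 and 0.635. The receptor IGF1R was at 1.29 and 1.22 against 0.325 and 0.514. IGFBP7 is also a gene of vessels and was at 7.52 and 28.1 in the endothelial cells of the same libraries, while the endothelial markers of members summed to 0.294 and 0.157. In the FGF list 4 of 8 were higher and 0 lower, and in the EGF list 1 of 8 was higher and 2 were lower. FGFR1 was at 0.940 (0.537 to 1.53) and 1.18 (1.08 to 1.28) against 0.0854 and 0.310, and EGFR at 0.999 and 0.937 against 0.380 and 0.450. The EGFR ligands AREG and HBEGF were lower, AREG by 2.68-fold and 2.21-fold and HBEGF at 1.29 and 0.657 against 2.69 and 1.60, opposite to EGFR. In CT-LCG members 8 of the 17 EGFR UMIs came from 1 cell, without which EGFR was at 0.540 and not past the fold. The other compared members of the EGF list, EREG, TGFA, BTC, ERBB2 and ERBB3, did not pass the fold in both libraries. FGF2 and FGF11 were past the fold with 1 UMI each in CT-LCG, and FGF18, a ligand of the resting follicle, was at 0.294 and 0.249 against 0.0909 and 0.0118, with 3 of its 5 CT-LCG UMIs in 1 cell.

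In the Notch list, JAG2 and LFNG were higher, 2 of 10, with 0 lower. The ligand JAG2 was at 1.41 (0.904 to 2.10) and 1.77 (1.65 to 1.90) UMIs per 10000 against 0.304 and 0.558, and LFNG, which modifies Notch receptors, at 0.764 and 1.10 against 0.0600 and 0.141. The receptor NOTCH1 was at 0.529 and 0.760 against 0.376 and 0.573 and lay within the fold. In the TGF-beta list, 3 of 12 were higher, LTBP1, LTBP3 and TGFB3, the last with 4 UMIs in CT-LCG.

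Of 23 follicle transcription factors that could be compared, SOX9, NFIB, SOX4, TRPS1 and BARX2 were higher in both libraries and TFAP2C, ZNF750 and HOPX lower, TFAP2C on 3 UMIs in CT-LCG. GRHL3 was counted as lower as well, but with 0 UMIs in CT-LCG members its call rests on FT-LCG. SOX4 was at 8.29 (6.97 to 9.77) and 4.60 (4.41 to 4.81) UMIs per 10000 against 2.95 and 1.55, and TRPS1, a transcriptional repressor needed for hair follicle development, at 0.823 and 0.717 against 0.187 and 0.162. ZNF750 and GRHL3, which act in terminal differentiation of epidermis, were at 0.235 and 0.280 against 0.774 and 1.03, and at 0 (0 UMIs) and 0.0314 against 0.0854 and 0.141. TP63, which maintains basal keratinocytes, was at 1.70 and 1.90 against 0.891 and 0.812 and lay within the fold in CT-LCG. HOPX, also known from follicle stem cells, was among the lower factors.

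Cell junction genes split. Of 18 genes in the desmosome and adhesion list, DSG3, GJA1 and GJB6 were higher and DSC1 and CLDN4 lower. GJB6, a connexin, was at 3.47 (2.64 to 4.47) and 4.40 (4.20 to 4.60) UMIs per 10000 against 0.127 and 0.622, and GJA1, another connexin, at 3.58 and 3.60 against 0.709 and 0.654. The immediate early list, of genes that respond quickly to stimulation, held 0 of 14 past the fold in the same direction in both libraries, although its median log2 ratio was 0.54 and -0.45 and FOS was 2.66-fold higher in CT-LCG members. By the same count, 0 of 7 cell cycle genes and 0 of 80 ribosomal protein genes were past it, the cycle genes being limited in part by the rule. In the chemokine list CXCL14 was higher and CCL20 and CXCL8 were counted as lower, 1 and 2 of 8, CXCL8 with 0 UMIs in CT-LCG members against 0.171, under the limit of 3 counts there (0.176), and CCL20 at 0.764 and 2.33 UMIs per 10000 against 4.85 and 7.72. In the S100 list S100A1 and S100A13 were higher and S100A7A and S100A8 lower, of 11, with S100A13 at 2.00 and 2.31 against 0.122 and 0.458 and S100A8 at 1.41 and 0.238 against 9.68 and 0.725. In the retinoid list ALDH1A1 was lower, 1 of 8.

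Against KRT6A-high cells, 2710 genes could be compared, of which 120 (4.43%) were at least 2-fold higher in members of both libraries and 114 (4.21%) lower. The median log2 ratio was 0.01 and 0.10, and the intervals were apart for 99 (3.65%) and 95 (3.51%) genes. With cells thinned to 1000 UMIs the counts were 13 and 25 of the 412 genes that could then be compared. The 8 highest were KRT8, CXCL14, LAMB3, LCN2, LOC102179515, ITGB4, ADIRF and EDN2, and the 8 lowest were LOC102188015, SLC39A8, LOC102176685, GATM, GPX2, PDZRN3, KLK7 and FABP5. LOC102179515, a protein-coding gene named only by its locus, was at 54.1 (50.6 to 57.7) and 100.3 (99.4 to 101) UMIs per 10000 in members, 0.911 and 10.2 in KRT6A-high cells and 6.40 and 24.7 in negative keratinocytes. ADIRF was at 3.94 and 7.83 against 0.130 and 0.796 in KRT6A-high cells but within the fold of negative keratinocytes, which had 2.38 and 9.08, whereas EDN2, endothelin 2, was at 1.65 and 0.556 against 0 (0 UMIs) and 0.0578.

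Anchoring genes were higher in members than in KRT6A-high cells. Of the 8 hemidesmosome genes compared, 5 were higher (COL17A1, ITGA6, ITGB4, DST and LAMB3), and COL17A1 was 13.8-fold and 7.27-fold higher. Of 9 basement membrane and matrix genes, 8 were higher, with POSTN 27.4-fold and 8.75-fold. In the desmosome list, 6 of 16 were lower, among them DSP at 6.05 and 8.45 UMIs per 10000 against 14.1 and 19.0, and GJB2 at 0.705 and 1.24 against 4.42 and 6.19, and CDH3 was higher. In the signalling lists the higher genes were LGR5 (1 of 3 Wnt receptors), ID4 and SMAD7 (2 of 6 of BMP and activin), FGFR1 (1 of 2 of FGF), GAS1 and BOC (2 of 2 of Hedgehog), JAG2 (1 of 5 of Notch) and IGFBP5 and IGFBP7 (2 of 3 of IGF). In the EGF list ERBB3, AREG, HBEGF and BTC were lower, 4 of 6, and 0 of 4 Wnt nuclear factors and targets, 0 of 1 Wnt antagonist and 0 of 1 gene of the TGF-beta list passed the fold. Of 17 follicle transcription factors compared, NFIB and NFIX were higher and ZNF750 was lower. SOX9, SOX4, TRPS1 and BARX2 did not pass the fold in both libraries, and BARX2 had log2 ratios of -1.63 and -0.56. CCL27 and IL1R2 were higher than in KRT6A-high cells as well, CCL27 at 5.70 (4.62 to 6.95; 1.89 without the cell that held 67 of 97 UMIs) and 6.14 (5.91 to 6.37) against 0.347 and 0.841, although in negative keratinocytes CCL27 was at 5.12 and 13.7.

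Among the lower genes, FABP5 was at 41.6 and 31.8 UMIs per 10000 in KRT6A-high cells against 3.76 and 5.65 in members, and GPX2, a glutathione peroxidase, at 6.46 and 4.82 against 0.470 and 0.639. PDZRN3 was at 1.52 and 1.61 against 0.235 and 0.244. KLK7, a protease that sheds corneocytes, was at 6.33 and 3.00 against 0.118 (2 UMIs) and 0.529. The suprabasal list was lower for 4 of 8 genes here, although KRT1 was 15.8 in KRT6A-high cells of FT-LCG, close to the 14.4 of the members there.

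Within the members, the markers varied from cell to cell. CXCL14 per cell had a lowest, median and highest value of 0, 8.53 and 87.8 UMIs per 10000 in CT-LCG and 0, 20.7 and 328 in FT-LCG. SOX9 had 0, 1.83 and 53.2, and 0, 3.08 and 59.0. The median of KRT19 and of LGR5 was 0 in both libraries, with highest values of 32.3 and 113 for KRT19 and of 19.8 and 29.8 for LGR5. CXCL14 was therefore spread over most members and KRT19 and LGR5 over a part of them.

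**Figure D4:**
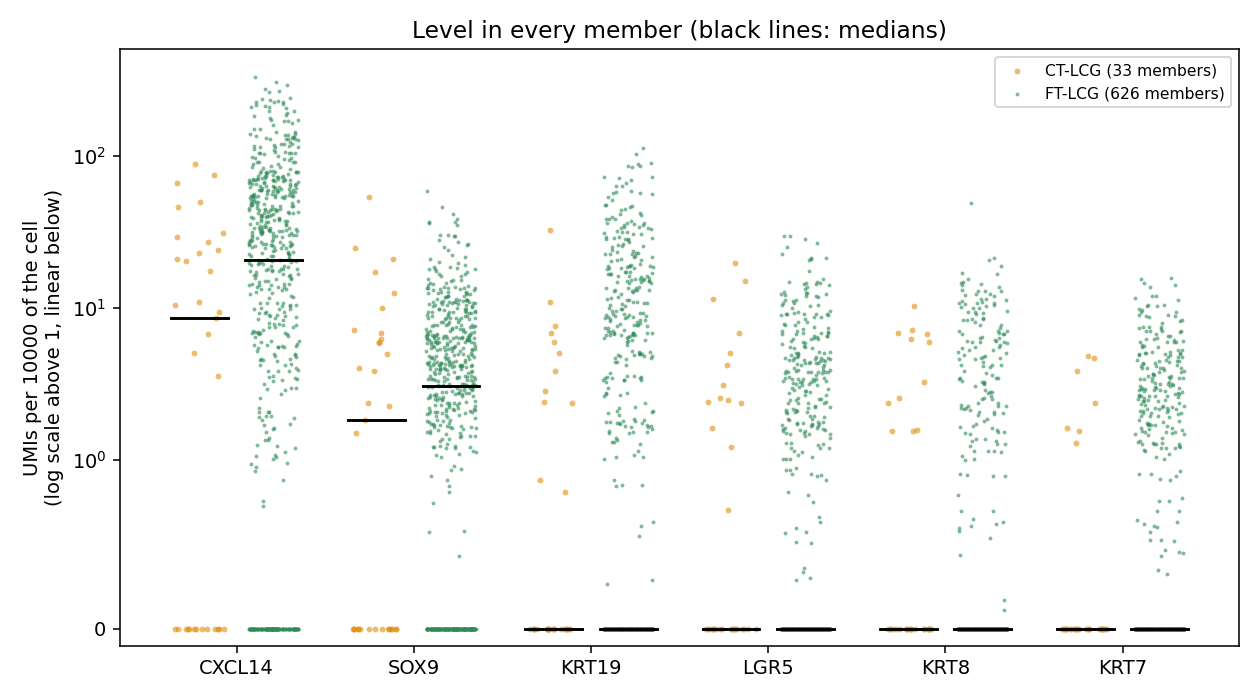
Level of 6 genes in every member, in UMIs per 10000 of the cell (log scale above 1, linear below), with one point per cell, CT-LCG beside FT-LCG for each gene and black lines at the medians. The CXCL14 medians lay at 8.53 and 20.7, and those of KRT19, LGR5, KRT8 and KRT7 at 0 in both libraries.

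Shares of members with a UMI depend on depth, so each cell was also thinned to 1000 UMIs, which left out 2 members of CT-LCG and 36 of FT-LCG. CXCL14 had a UMI in 60.6% of members (42.1 to 77.1) in CT-LCG and 78.0% (74.5 to 81.1) in FT-LCG, and in 61.3% and 66.6% after thinning. Suprabasal keratinocytes, with KRT1 and KRT10 at 100 or more per 10000 and KRT14 and KRT5 under the limit, should hold little of these genes. They had CXCL14 in 19.3% and 23.5% of cells at a median of 4965 and 12834 UMIs, and in 4.89% and 3.12% after thinning. LGR5 had a UMI in 42.4% (25.5 to 60.8) and 39.9% (36.1 to 43.9) of members and in 19.4% and 14.9% after thinning, with 0.688% and 0.204% in thinned suprabasal cells. KRT19 had one in 36.4% (20.4 to 54.9) and 45.2% (41.3 to 49.2), and in 12.9% and 29.8% after thinning, with 0.994% and 0.883% in thinned suprabasal cells. SOX9 fell from 54.5% and 70.0% to 25.8% and 33.7%, against 7.26% and 11.8% in thinned suprabasal cells and 35.5% and 40.3% in thinned KRT6A-high cells. Thinned KRT6A-high cells had CXCL14 in 9.68% and 14.3%, KRT19 in 6.45% and 6.96%, and LGR5 in 3.23% and 4.76%. In CT-LCG the KRT19 and LGR5 intervals of these cells overlapped those of members. All 4 shares of members were above the suprabasal background, and that of SOX9 was not above the KRT6A-high cells.

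The members with UMIs of both selecting genes carried more of the other markers than those with SFRP1 alone, which is a description, since both genes took part in the choice. CXCL14 was at 26.5 against 6.52 UMIs per 10000 in CT-LCG and at 55.0 against 19.9 in FT-LCG. KRT19 was at 5.08 against 0.356, and at 11.6 against 3.62. Without 1 cell that held 26 of 43 UMIs, the first of these values was 2.22. LGR5 was at 2.84 against 0.712 (6 UMIs) and at 1.81 against 0.764, and ID4 at 12.1 against 3.68 and at 7.24 against 3.28. POSTN did not go this way in FT-LCG, at 19.4 against 25.5. The 30 FT-LCG members with TBX1 alone had CXCL14 at 63.3 and KRT10 at 72.3, the latter above the 27.4 and 21.4 of the other members.

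KRT19 divided the deeper members further. Among members with at least 3000 UMIs, 223 of 420 in FT-LCG and 9 of 17 in CT-LCG had a KRT19 UMI. In FT-LCG those with KRT19 had LGR5 at 1.98 (1.81 to 2.15) UMIs per 10000 against 0.298 (0.218 to 0.399) in those without, KRT8 at 2.65 (2.46 to 2.86) against 0.398 (0.304 to 0.512), and KRT7 at 2.21 against 0.471. ID4 was at 7.72 against 2.62, GJB6 at 5.71 against 2.14, and IGFBP7 at 16.5 against 8.86. LCN2 had an interval of 1.36 to 1.66 in those with KRT19 and was at 0.0530 in those without. In the other direction, CCL27 was at 2.42 (2.24 to 2.62) against 13.2 (12.7 to 13.8) and POSTN at 17.4 against 26.4. The selecting gene SFRP1 was also higher in those with KRT19, at 10.8 against 6.17, and their median depths were 6807 and 6365 UMIs.

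In CT-LCG the same split rested on few cells, and single cells decided most of its values. LGR5 was at 2.61 (1.46 to 4.31) in the 9 cells with KRT19 against 0.832 (0.335 to 1.71) in the 8 without, with intervals that overlapped, and it was at 1.48 in those with KRT19 without the cell that held 7 of 15 UMIs. SOX9 was at 7.66 (5.57 to 10.3) against 2.26 (1.36 to 3.53), and without the cell that held 21 of 44 UMIs the first value was 4.30 (2.73 to 6.45), which overlaps the second. CCL27 was at 11.8 against 2.62, but 67 of the 68 UMIs behind the first value came from 1 cell, without which it was at 0.217 (0.00549 to 1.21). LCN2 was at 1.74 against 3.57, with all 10 UMIs of the first value in 1 cell and 22 of the 30 of the second in another, and GJB6 at 2.61 against 3.92, with 28 of the 33 UMIs of the second in 1 cell. No direction can be read from the CT-LCG values of CCL27, LCN2 and GJB6. These CT-LCG cells differed in depth, with medians of 4222 and 10494 UMIs.

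**Figure D5:**
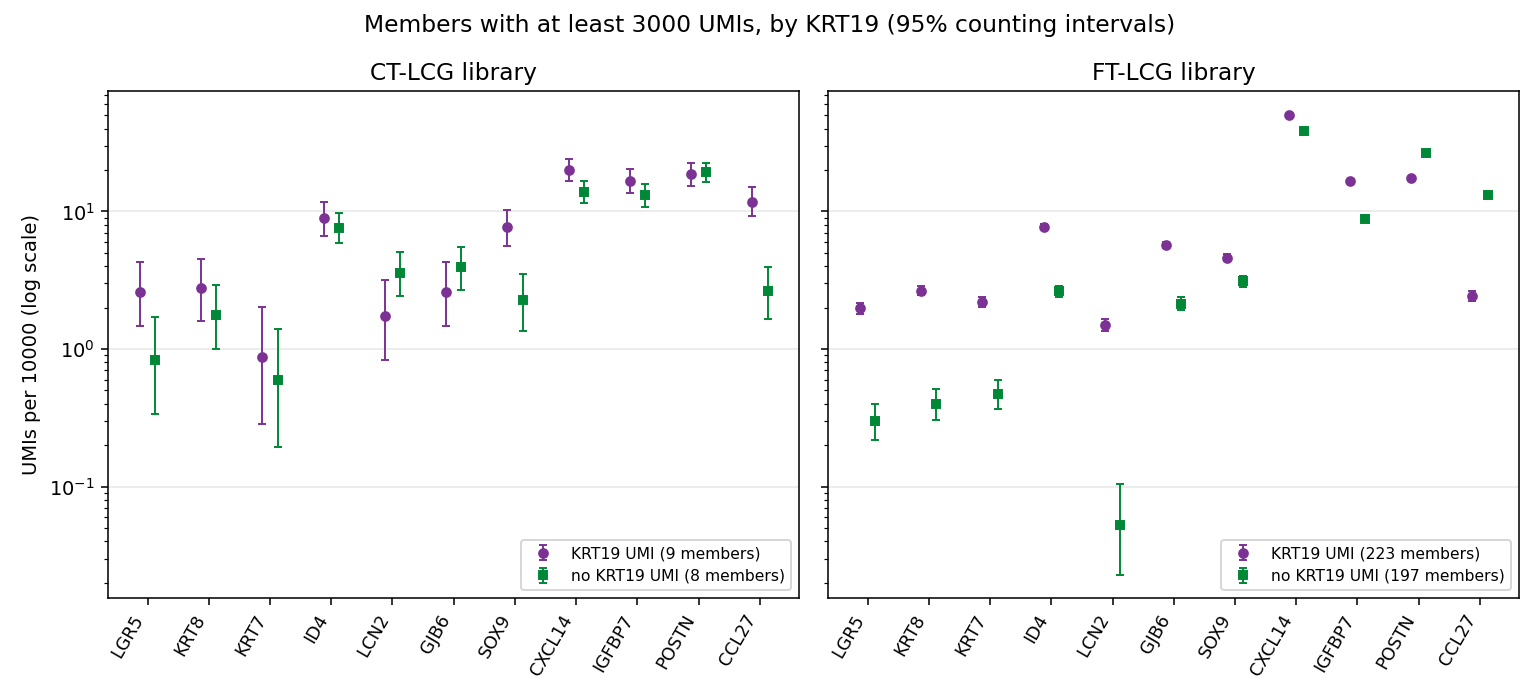
Level of 11 genes in members with at least 3000 UMIs, in UMIs per 10000 on a log scale with 95% counting intervals, for members with and without a KRT19 UMI, one panel per library. In FT-LCG LGR5 was at 1.98 against 0.298 and CCL27 at 2.42 against 13.2, while the CT-LCG values rest on few cells, CCL27 at 11.8 on 1 cell for 67 of its 68 UMIs.

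Over the 420 deeper FT-LCG members, all of 1 library and each with a common depth for all genes, LGR5 went with KRT19 (Spearman's rho 0.60, Pearson's r of log values 0.58) and KRT8 with KRT19 (0.51 and 0.52). CXCL14 went with IGFBP7 (0.58 and 0.62) and with DIO2 (0.43 and 0.42), and against CCL27 (-0.41 and -0.46). IGFBP7 went with ID4 (0.55 and 0.57) and BGN (0.52 and 0.53) and against NFKBIA (-0.38 and -0.39). These are descriptions over cells of 1 goat. CXCL14 was only weakly related to KRT19 (0.25 and 0.29), while ID4 went with LGR5 (0.44 and 0.41) as well as with IGFBP7.

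The first principal component of the 626 FT-LCG members, without the selecting genes, held 7.28% of the variance and followed depth (rho with UMIs -0.91). Among the 420 deeper members it held 7.18% and related to depth with a rho of 0.17. The genes at its ends included NFKBIA, TIPARP, CCNL1, ETS2, CDKN1A, BHLHE40, CEBPD, LOC102181202 and SFN on one side and IGFBP7, ID4, SPARC, BGN, NDUFA4L2, TMSB10, CXCL14, COL18A1, LTBP4 and BSG on the other. The first end holds several genes of quick response, NFKBIA and CEBPD among them, and the second several genes named above as higher in members. In the 33 CT-LCG members the component held 10.3% and related to depth with a rho of 0.41, and 8 of the 10 genes of 1 end were ribosomal protein genes.

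FOS, an immediate early gene, had a median of 38.5 UMIs per 10000 among CT-LCG members and 10.7 among FT-LCG members, and NFKBIA 18.9 and 4.26. By summed levels FOS was at 68.6 and 41.3, while in negative keratinocytes it was at 25.8 and 35.0. NFKBIA was at 26.0 and 15.2 by summed levels, and at 27.7 and 21.3 in negative keratinocytes. NFKBIA was thus higher in CT-LCG in both groups of cells, and FOS in members but not in negative keratinocytes. Their part in the differences between libraries below was not tested.

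Between the libraries, 7533 genes had at least 50 UMIs in members over both, and 689 (9.15%) were at least 2-fold higher in FT-LCG members and 790 (10.5%) in CT-LCG members. The median log2 ratio of FT-LCG to CT-LCG was -0.09. The intervals were apart for 134 and 348 of the 7533 genes. CT-LCG members were 33 cells against 626, which widens every interval of this comparison. Of the 1479 genes past the fold, 278 (18.8%) were also past it in the same direction in negative keratinocytes, and such genes differed between the libraries beyond the members. The share of all 7533 genes past the fold in negative keratinocytes was not counted, so the 18.8% has no background beside it. The remaining genes can therefore not be called particular to members.

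The 8 genes furthest toward FT-LCG were LOC102180443, PEBP1, LOC100860961, DKK2, PRSS23, ACTA2, LOC102181164 and THBS2, each with 0 UMIs in CT-LCG members except LOC102180443, with 1 against 6723. The log2 ratio of LOC102180443, which the reference table lists as a transcribed pseudogene, was 7.42 in members and 6.21 in negative keratinocytes, and that of PEBP1 5.26 and 4.42, so these went with the library in both groups of cells. DKK2 was at 4.65 and 1.56, PRSS23 at 3.70 and -0.04 and ACTA2, the actin of smooth muscle, at 3.69 and -0.61, and the last 2 did not differ that way in negative keratinocytes. With 0 UMIs in CT-LCG members these ratios depend on the 0.5 UMI added. Against the limit of 3 counts PEBP1 was at least 6.37-fold, DKK2 at least 4.18-fold, PRSS23 at least 2.16-fold and ACTA2 at least 2.15-fold higher in FT-LCG members. The smooth muscle markers of the members summed to 1.47 and 2.94 UMIs per 10000, as given above, and their part in the ACTA2 difference was not tested.

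The 8 genes furthest toward CT-LCG were LOC108633505, LOC108637981, LOC102191166, LOC106503120, LOC102191453, LOC108633164, SPP1 and MFSD2A. The first 6, named only by locus, had log2 ratios from -4.41 to -2.97 in members and from -4.75 to -2.87 in negative keratinocytes. SPP1, osteopontin, was at 6.05 and 0.816 UMIs per 10000, but 102 of its 103 UMIs in CT-LCG members came from 1 cell. MFSD2A, a lipid transporter, was at 1.35 and 0.186, with 60.9% of its CT-LCG UMIs in 1 cell. In negative keratinocytes their log2 ratios were 0.09 and -1.31. Thus the first 6 differed in both groups of cells and the last pair rested mainly on 1 cell. Of the 6, LOC108633164 turned to a log2 ratio of 1.84 in members with the profile of barcodes outside the cell table subtracted. For this gene 41 of the 88 UMIs in FT-LCG members came from 1 cell.

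The genes above were picked as the furthest each way. The smaller log2 ratios of the markers between the libraries, with all members included, follow from that ranking and are no finding. CXCL14 was 2.74-fold and KRT19 3.40-fold higher in FT-LCG members, with log2 ratios of 1.45 and 1.75, and negative keratinocytes had 1.69 and 1.55. In CT-LCG members 26 of the 46 KRT19 UMIs came from 1 cell. Without that cell the KRT19 fold would be larger, so its size next to the genes above is uncertain. SOX9, LGR5, NFIB, ID4, IGFBP7, SPARC and BGN had log2 ratios of -0.17, -0.24, 0.17, -0.38, 0.04, 0.25 and 0.04 in members, all within 2-fold. In negative keratinocytes SOX9 had a log2 ratio of 1.96 and LGR5 of 1.27, higher in FT-LCG, and whether the groups of cells differ in this was not tested.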

How the data were processed

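Skin cells of 2 goats were captured with the 10x Chromium 3' chemistry, 1 library per goat. The deposited values were UMI counts per gene and barcode, which the authors made with Cell Ranger (3.0.2 in the matrix header) and did not normalize. The authors' kept cells, after Seurat 3.1.1 filters on gene number and mitochondrial share, and their type came from the deposited cell table, because the labels assign neither goat to a type. The submitters' processing notes name only builds of human and mouse, whereas the features match goat gene IDs, so the goat build behind the counts is not given in the sources used here and no coordinates are printed. Of 27137 features, 27103 had a gene ID in the reference table, and 405 of 431 listed genes had 1 feature.

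Counts were summed over the cells of a group and scaled to 10000 UMIs. Levels had exact Poisson intervals and shares exact Clopper-Pearson intervals, at 95%. They cover counting error only, and 0 UMIs was limited by 3 counts. A gene was compared when both groups together had at least 20 UMIs in each library (50 between libraries) and counted when the ratio, with 0.5 UMI added, reached 2-fold in both libraries. With 1 goat per type there was no test. The members and gene lists were chosen with earlier results of these data known. Named genes were the 15 highest and 10 lowest against negative keratinocytes, the 8 and 8 against KRT6A-high cells, the 8 each way between libraries, the 10 genes at each end of a component, and genes of the lists.

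No doublet caller was run, and leaving out the 5% of members with the most UMIs was an alternative. The other alternatives changed the rule for members, the depth of cells, a background profile, the comparison cells, the fold and the count minimum. The background subtracted was the profile of barcodes outside the cell table at 10% of the UMIs. Those barcodes were cells removed by the authors' filters, so the profile is not free RNA alone. Group sums for members and negative keratinocytes were simulated over 9851 genes with counting error only. In them 94 of 100 genes raised 4-fold and 67 of 100 lowered as much were recovered, and 2 of 9651 unchanged genes were counted. The simulation had no variation between cells, whereas single cells held most UMIs of some genes in the data. It therefore gives no rate of false calls for the data. Python 3.11.15, numpy 2.4.6, scipy 1.17.1, pandas 2.3.3 and matplotlib 3.10.9 were used.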

Additional observations from a re-analysis of the deposited data

Results flagged for a closer look

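Of the genes compared with negative keratinocytes, 47 were past 2-fold in opposite directions in the 2 libraries, and the counting intervals were apart in both for DIO2 and LOC102191806. DIO2, a deiodinase that activates thyroid hormone, had a log2 ratio of members to negative keratinocytes of -2.43 in CT-LCG, where members had 5 UMIs (0.294 UMIs per 10000, 0.0954 to 0.686) against 1.74. The ratio was 2.81 among FT-LCG cells, where members had 953 UMIs (2.14, 2.00 to 2.28) against 0.304. In FT-LCG 24.4% of members had a DIO2 UMI, and 10.3% after thinning to 1000 UMIs. LOC102191806 had -3.43 and 2.99, with 0 and 91 UMIs in members and 174 and 59 in negative keratinocytes.

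Against KRT6A-high cells, LOC102185525 had log2 ratios of -1.71 and 1.63, with members at 0.588 and 1.29 UMIs per 10000 against 1.99 and 0.414. LOC108633164 had -1.05 and 2.31, with members at 1.53 and 0.197 against 3.21 and 0.0385, and 41 of its 88 UMIs in FT-LCG members came from 1 cell. None of these differences between the libraries was tested, and each rests on 1 goat of either type.

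Among barcodes outside the cell table, 3 of CT-LCG and 22 of FT-LCG met the rule for members. They were left out of every value above.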

How the results depend on the processing

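Under the alternative rules CT-LCG had 23 to 32 members and FT-LCG 462 to 598. Of 110 counts and shares recomputed, 67 stayed near their value and 43 moved. Of 966 log2 ratios of single named genes, 685 stayed within their interval, 271 moved in size and 10 reversed. Against negative keratinocytes, 14 of the 15 highest genes stayed at least 2-fold higher in both libraries under all 11 alternatives, the exception being KRT19 in CT-LCG with KRT1 and KRT10 under 20 per 10000 (log2 0.24, 6 members). Of the 10 lowest only ALDH1A1 stayed at least 2-fold lower, and each of the 10 had at most 1 UMI in CT-LCG members. In FT-LCG the fold was also lost by KRT4 (log2 -0.27), LOC102181552 (-0.64) and LRMP (-0.92). Without the cell with the most UMIs of the gene, an alternative chosen after seeing the data, 58 of 71 named or listed genes stayed 2-fold higher than in negative keratinocytes in both libraries and 40 of 42 than in KRT6A-high cells. Those lost were EGFR, FGF2, FGF11, FGF18, FZD2, GAS1, GLI3, HOXC13, IGF2, LAMC1, PDZRN3, PECAM1 and SPP1, and NFIB and NFKBIA. Over 9 alternatives, 8 of the 8 highest and 6 of the 8 lowest genes against KRT6A-high cells stayed past 2-fold in both libraries.

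The counts of higher and lower genes against negative keratinocytes (575 and 226) were 81 and 99 with KRT1 and KRT10 under 20 per 10000 in both groups, 235 and 96 with cells thinned to 1000 UMIs, and 291 and 116 against cells with SFRP1 or TBX1 UMIs that are not members. They were 1306 and 601 at a fold of 1.5, 205 and 54 at a fold of 3, and 323 and 103 with counting intervals apart. With at least 50 UMIs 305 were higher, and with at least 1 UMI 2284. Against KRT6A-high cells (120 and 114) the counts were 13 and 25 after thinning, 312 and 242 at a fold of 1.5, 62 and 49 at a fold of 3, 37 and 54 with at least 50 UMIs, and 1280 and 437 with at least 1. Between libraries (689 and 790) they were 207 and 211 after thinning and 134 and 348 with intervals apart, and by the mean over cells 1357 were higher in FT-LCG. Fewer genes could be compared after thinning and with low KRT1 and KRT10. The cause of the other moves was not tested. The limits on KRT1 and KRT10, on intervals and at a rate of 6 per 10000 were chosen after seeing the data.

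Thinning gave shares with a UMI of 66.6% for CXCL14 (FT-LCG), 25.8% and 33.7% for SOX9, 12.9% and 29.8% for KRT19, and 19.4% and 14.9% for LGR5. Members with at least 3000 UMIs gave 76.7%, 53.1% and 44.0% for SOX9, KRT19 and LGR5 in FT-LCG. Of the 20 genes at the ends of the first component, 6 were shared after thinning and 1 with at least 3000 UMIs in CT-LCG, and 11 and 0 in FT-LCG. Log2 ratios in CT-LCG reversed to 0.38 (at least 3000 UMIs), 1.46 (low KRT1 and KRT10) and 0.55 (other comparison cells) for ELOVL3, to 0.24 for KRT4 and 1.46 for LRMP (low KRT1 and KRT10), to 0.17 for LOC102190288 and 0.73 for LOC102181552 (thinned), and to 1.28 for LOC102176685 against KRT6A-high cells (at least 3000 UMIs). Between libraries SPP1 reversed to 3.10 without the members with the most UMIs. LOC108633164 reversed to 1.84 with the profile of barcodes outside the cell table subtracted. No paired analysis was possible because each type had 1 goat and no result came from a test.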
